A study of Mus musculus with 12 samples.

Results

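The genes described here are 9 genes of B lymphocytes and of the transport of immunoglobulin A (IgA) across the gut epithelium, taken as every probe set whose array annotation names one of them. They are Cd79a, Cd79b, Cd22, Ms4a1, Cd37, Pou2af1, Blnk, Jchain and Pigr, and 13 of the 22626 tested probe sets carried 1 of these names, among 12393 genes named on the array. Cd22, Ms4a1, Cd37 and Pigr each had 2 probe sets, and the one with the higher mean over all arrays stood for the gene.

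The study measured RNA of the scraped epithelial layer of the colon from male mice aged 6 to 8 weeks on Affymetrix 430A expression arrays, and asked how dietary quercetin, a plant flavonol, alters it with and without cytochrome P450 reductase (POR). Wild type C57BL/6 mice on the control diet, wild type mice on quercetin, POR-null mice on the control diet and POR-null mice on quercetin formed the 4 groups. All mice ate a soya-free powdered RM3 diet for 14 days, and the quercetin groups then received the same diet with quercetin at 6200 ppm, 7 mg per mouse, for 24 h. Each array held pooled RNA of 3 mice and each group 3 arrays, so n = 3 is a number of pools from 9 mice. Which cells of the null line lack POR, the reductase that supplies electrons to cytochromes P450, is not stated by the labels.

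Values are the deposited log2 signals, so that a difference of 1 is a doubling, and the number of arrays limits their precision. The 12 arrays had medians of 5.90 to 5.98 and correlated at 0.981 to 0.995 with each other over all probe sets. Colon epithelium genes, of which 24 of 25 were measured, had mean signals of 11.59 to 11.81 on the arrays, and so the labelled tissue was present on each. Some arrays stood apart in genes of other tissues. The mean of 12 pancreatic acinar genes was 8.97 on wild type control array 1 and 9.86 on POR-null quercetin array 2, against 6.12 to 7.40 on the other 10 arrays. The mean of 15 smooth muscle genes was 8.98 on wild type quercetin array 3, against 5.92 to 7.42 on the others.

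B cells recognise antigen through a membrane immunoglobulin that signals through the paired chains Cd79a and Cd79b. In the colon B cells gather in lymphoid follicles below the epithelium, where they switch to IgA, and their plasma cell descendants in the lamina propria secrete IgA as dimers held together by the joining chain, encoded by Jchain. The polymeric immunoglobulin receptor, encoded by Pigr, is made by epithelial cells, binds these dimers at their base and carries them to the lumen. Pools of scraped mucosa hold all of these cells in unknown shares, and in such samples fewer cells of a type and less RNA per cell cannot be told apart.

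Promoter windows were searched for sequence motifs because most of the B cell genes varied together over the arrays while Blnk and Pigr did not. RefSeq (GRCm38.p6) windows from 250 bases before to 50 bases after the gene start were found for 7 of the 9 genes. No window was given for Cd79b and Ms4a1. The motifs, searched on both strands and not overlapping each other, were the octamer ATGCAAAT bound by octamer factors and Pou2af1, the E-box CACGTG and the PU.1 motif GAGGAAGT. They occurred in 1.74%, 7.15% and 3.2% of the 32851 windows of this length. The 250 bases before the start, 5′ to 3′ on the gene's own strand, are printed for genes of each pattern below, with matches in capitals.
Cd79a, chr7:24897247-24897496, plus strand: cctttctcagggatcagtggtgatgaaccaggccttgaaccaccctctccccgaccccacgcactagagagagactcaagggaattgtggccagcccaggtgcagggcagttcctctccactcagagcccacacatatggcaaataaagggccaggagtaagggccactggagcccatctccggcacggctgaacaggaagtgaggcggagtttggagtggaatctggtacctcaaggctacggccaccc
Cd37, chr7:45238840-45239089, minus strand: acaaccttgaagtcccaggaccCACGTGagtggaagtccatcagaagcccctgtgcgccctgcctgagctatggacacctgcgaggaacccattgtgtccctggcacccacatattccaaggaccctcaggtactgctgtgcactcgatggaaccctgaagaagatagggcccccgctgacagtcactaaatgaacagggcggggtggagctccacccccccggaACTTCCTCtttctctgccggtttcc
Blnk, chr19:40994222-40994471, minus strand: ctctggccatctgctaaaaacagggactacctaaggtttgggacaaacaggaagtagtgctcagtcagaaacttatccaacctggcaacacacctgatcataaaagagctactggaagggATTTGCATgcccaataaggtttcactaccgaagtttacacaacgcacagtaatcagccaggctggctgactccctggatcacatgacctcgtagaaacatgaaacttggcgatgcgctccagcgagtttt
Jchain, chr5:88527898-88528147, minus strand: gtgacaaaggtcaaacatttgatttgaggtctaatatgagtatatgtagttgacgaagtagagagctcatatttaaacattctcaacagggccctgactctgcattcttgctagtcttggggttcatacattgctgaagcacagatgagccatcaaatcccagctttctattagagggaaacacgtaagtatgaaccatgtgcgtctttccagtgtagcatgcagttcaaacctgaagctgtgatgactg
Pigr, chr1:130826434-130826683, plus strand: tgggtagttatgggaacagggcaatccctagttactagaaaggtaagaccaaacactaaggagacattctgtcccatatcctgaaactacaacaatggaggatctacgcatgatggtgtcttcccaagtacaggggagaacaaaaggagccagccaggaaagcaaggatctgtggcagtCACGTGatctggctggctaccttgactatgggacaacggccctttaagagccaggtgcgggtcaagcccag
Cd37 held an E-box at -228 to -223 and the reverse complement of the PU.1 motif, ACTTCCTC, at -25 to -18, counted from the gene start. Blnk held the reverse complement of the octamer, ATTTGCAT, at -130 to -123. Pigr held an E-box at -71 to -66. The windows of Cd79a, Cd22, Jchain and Pou2af1 held none of these 3 motifs. A match describes the letters of the window and not a bound site.

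Cd79a, Cd79b, Cd22, Ms4a1, Cd37 and Pou2af1 were higher on average in wild type mice on quercetin than in wild type controls and lower on average in POR-null mice on quercetin than in POR-null controls. Jchain had differences of the same signs, with a spread over arrays larger than the differences. Blnk and Pigr had narrower ranges over the arrays than the other genes, at 0.59 and 0.48 for the probe sets that stood for them. Counted from the widest, these ranges ranked 5739 and 9748 of 22626 probe sets. None of the differences between groups passed the test over all probe sets.

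Cd79b, the beta signalling chain of the B cell receptor, had signals of 6.92, 5.72 and 5.79 on wild type control arrays 1, 2 and 3 and of 6.48, 8.78 and 7.72 on the wild type quercetin arrays. In POR-null mice it had signals of 8.81, 6.50 and 6.89 on the control arrays and of 6.15, 5.93 and 6.60 on the quercetin arrays. Wild type quercetin array 2 and POR-null control array 1 were the highest, and the groups overlapped within each genotype. The wild type means were 7.66 ± 1.15 (SD, n = 3) with quercetin and 6.14 ± 0.67 without, a log2 difference of 1.52 (SE 0.60, 2.86-fold, limma adjusted p = 0.954). The POR-null means were 6.23 ± 0.34 with quercetin and 7.40 ± 1.24 without, a log2 difference of -1.17 (SE 0.60, adjusted p = 1). Without wild type quercetin array 2 the wild type difference was 0.96, and without POR-null control array 1 the POR-null difference was -0.47.

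Cd79a, the alpha chain of the same pair, had signals of 6.91, 5.71 and 5.68 on the wild type control arrays and of 6.07, 7.93 and 7.09 on the wild type quercetin arrays. Its POR-null signals were 7.96, 6.45 and 6.51 on the control arrays and 6.18, 6.16 and 6.31 on the quercetin arrays. The same arrays as for Cd79b were highest, and the 3 POR-null quercetin arrays all lay below the 3 POR-null control arrays. The log2 difference was 0.93 (SE 0.47) in wild type and -0.76 (SE 0.47) in POR-null mice. In wild type it was 0.48 without quercetin array 2 and 1.41 without quercetin array 1, and in POR-null mice it was -0.26 without control array 1. With 3 arrays against 3 an exact two-sided permutation test cannot go below p = 0.1, which is the value it gave for Cd79a in POR-null mice.

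Cd22, an inhibitory co-receptor that damps B cell receptor signalling, had signals of 7.04, 6.18 and 6.34 on the wild type control arrays and of 6.87, 7.42 and 7.35 on the wild type quercetin arrays. In POR-null mice they were 7.71, 6.73 and 6.99 on the control arrays and 6.44, 6.57 and 6.83 on the quercetin arrays. On quercetin all POR-null arrays lay below all wild type arrays, with 6.83 the highest of the former and 6.87 the lowest of the latter. The differences were smaller than those of Cd79b, at 0.69 (SE 0.26, 1.62-fold) in wild type and -0.53 (SE 0.26) in POR-null mice, the latter -0.25 without POR-null control array 1. Its second probe set, with signals of 4.40 to 5.17, gave 0.31 and -0.17.

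Ms4a1, which encodes the B cell surface protein CD20, had signals of 6.80, 5.45 and 5.95 on the wild type control arrays and of 6.00, 7.90 and 7.34 on the wild type quercetin arrays. POR-null signals were 7.90, 6.15 and 6.52 without quercetin and 5.90, 5.96 and 6.44 with it. Within each genotype the groups overlapped, and the differences were 1.01 (SE 0.50) in wild type and -0.76 (SE 0.50) in POR-null mice. The wild type value was 0.60 without quercetin array 2 and 1.55 without quercetin array 1, and the POR-null value was -0.23 without control array 1. A second Ms4a1 probe set had signals of 2.78 to 4.40 and differences of 0.63 and -0.52.

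Cd37, a tetraspanin of the B cell surface, had signals of 6.54, 5.78 and 6.16 on the wild type control arrays and of 6.37, 7.43 and 6.79 on the wild type quercetin arrays. POR-null signals were 7.10, 6.41 and 6.52 on the control arrays and 6.33, 6.22 and 6.45 on the quercetin arrays. Its spread was narrower than that of the receptor chains, and the difference was 0.70 (SE 0.26, 1.63-fold) in wild type and -0.34 (SE 0.26) in POR-null mice. These were 0.42 without wild type quercetin array 2 and -0.13 without POR-null control array 1. The second Cd37 probe set gave smaller differences of 0.16 and -0.14.

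Pou2af1, a coactivator that joins octamer factors on promoters of immunoglobulin genes, had signals of 5.53, 4.33 and 4.26 on the wild type control arrays and of 4.99, 6.83 and 5.35 on the wild type quercetin arrays. POR-null signals were 7.00, 5.06 and 4.96 on the control arrays and 4.86, 4.67 and 5.04 on the quercetin arrays. Wild type quercetin array 2 and POR-null control array 1 stood above all others. The differences were 1.02 (SE 0.54) in wild type and -0.82 (SE 0.54) in POR-null mice. They were 0.46 without the former and -0.15 without the latter array.

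**Figure D1:**
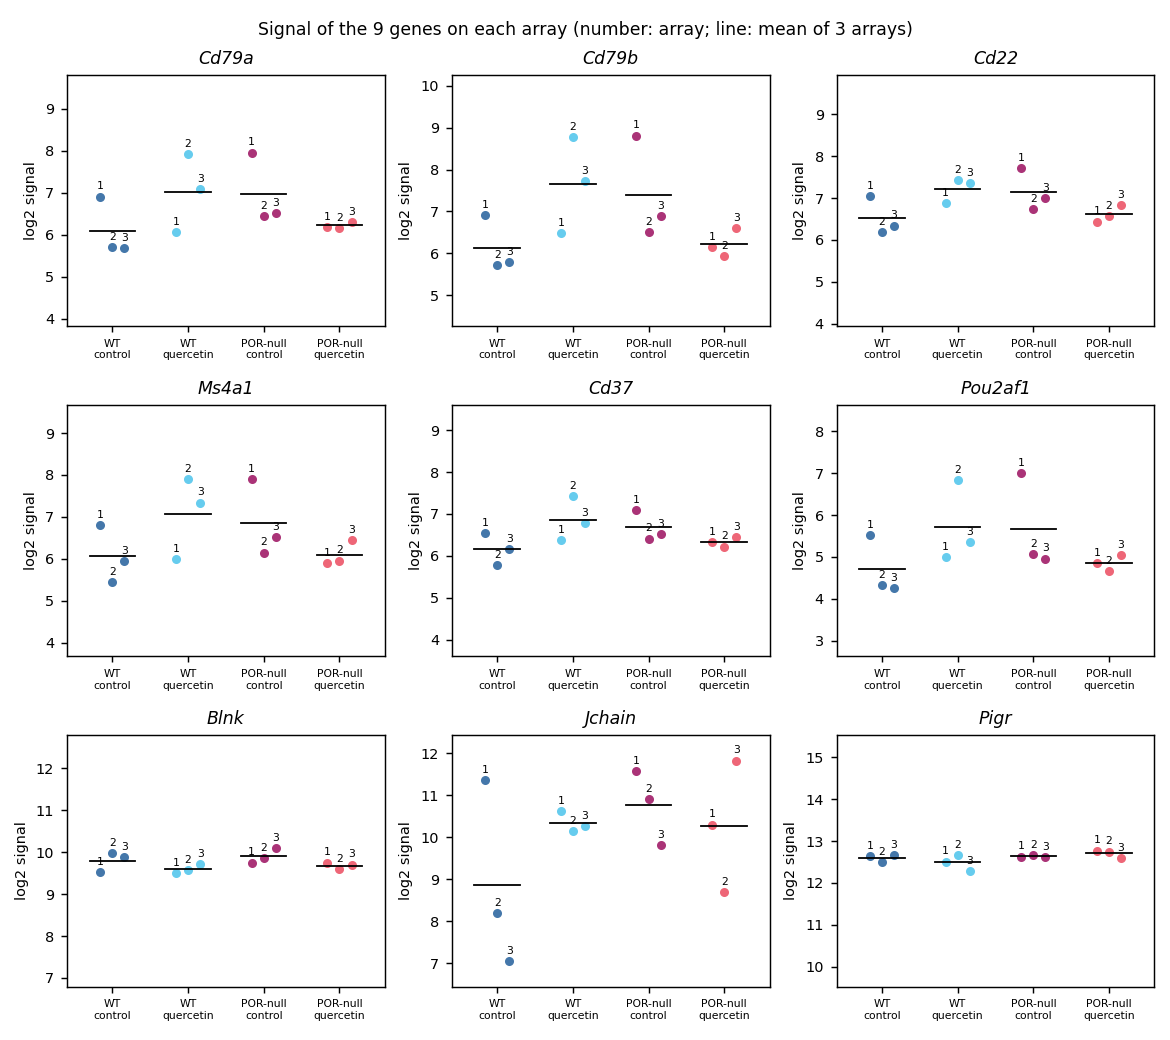
Log2 signal of each of the 9 genes on the 12 arrays, with points numbered by array, lines at the mean of the 3 arrays of a group and axes of equal length. The 6 panels from Cd79a to Pou2af1 share their highest arrays, wild type quercetin array 2 and POR-null control array 1, while Blnk and Pigr lie in narrow bands and Jchain spans 7.05 to 11.83.

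Blnk, the adaptor that links the activated receptor to calcium signalling, had a flatter profile. It had signals of 9.53, 9.98 and 9.89 on the wild type control arrays and of 9.50, 9.57 and 9.71 on the wild type quercetin arrays. POR-null signals were 9.75, 9.85 and 10.09 without quercetin and 9.75, 9.60 and 9.70 with it. Its quercetin difference was -0.21 in each genotype (SE 0.12, with a 95% interval of -0.48 to 0.06 in both). In wild type it was -0.34 without control array 1 and -0.12 without control array 2, and in POR-null mice -0.12 without control array 3. An increase of the size measured for Cd79b in wild type mice lies outside that interval.

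Jchain, the joining chain of dimeric IgA, varied most of the 9 genes. It had signals of 11.37, 8.20 and 7.05 on the wild type control arrays and of 10.62, 10.14 and 10.27 on the wild type quercetin arrays. POR-null signals were 11.58, 10.91 and 9.81 on the control arrays and 10.30, 8.69 and 11.83 on the quercetin arrays. Wild type control arrays 2 and 3 were low and array 1 of that group was among the highest, so the wild type control group spanned nearly the whole range. The quercetin difference was 1.47 (SE 0.93, 95% interval -0.54 to 3.48) in wild type and -0.49 (SE 0.93, interval -2.50 to 1.52) in POR-null mice. The wild type value was 2.72 without control array 1 and 0.56 without control array 3, and the POR-null value was 0.30 without quercetin array 2.

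Pigr, the epithelial receptor that carries dimeric IgA to the lumen, had signals of 12.64, 12.49 and 12.67 on the wild type control arrays and of 12.51, 12.67 and 12.29 on the wild type quercetin arrays. POR-null signals were 12.63, 12.66 and 12.62 without quercetin and 12.77, 12.75 and 12.60 with it. The quercetin difference was -0.11 (SE 0.10, 95% interval -0.33 to 0.11) in wild type and 0.07 (SE 0.10, interval -0.15 to 0.29) in POR-null mice. With single arrays left out these were -0.20 to -0.01, the latter without wild type quercetin array 3, and 0.04 to 0.12. The second Pigr probe set had a wild type control mean of 11.98 ± 0.02 (SD, n = 3), with a lowest signal of 11.96, and signals of 11.90, 11.84 and 11.61 on the wild type quercetin arrays. Those groups did not overlap, with a difference of -0.20 (SE 0.09, adjusted p = 0.957), and its POR-null difference was 0.02. On the quercetin diet both Pigr probe sets were higher in POR-null than in wild type mice, by 0.22 (SE 0.10) and 0.20 (SE 0.09, no overlap), with a limma adjusted p of 0.998 for each. The first of these was 0.12 without wild type quercetin array 3, the lowest array for both probe sets.

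In wild type mice 0 of the 13 probe sets passed an adjusted p of 0.05 for quercetin, as did 0% of all tested probe sets, and the adjusted p ranged from 0.952 to 0.965. At an unadjusted p under 0.05 in limma there were 3 of 13, all higher with quercetin (Cd79b, Cd22 and Cd37), where 3.2% of all probe sets were higher at that level. No gene of the 9 had wild type quercetin arrays wholly above the controls, which 5.65% of all probe sets had, and 1 probe set, of Pigr, lay wholly below, as did 3.66%. The median difference of the 8 B lineage genes, all but Pigr, was 0.97 against 0.00 over all probe sets, and 7 of the 8 were higher. That median was 0.53 without wild type quercetin array 2. Blnk is counted among the 8, although it correlated at -0.38 to -0.27 with Cd79a, Cd79b, Cd22, Ms4a1, Cd37 and Pou2af1 over the arrays.

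In POR-null mice 0 of 13 passed for quercetin, with a background of 0% and an adjusted p of 1 for every one. By limma 0 of 13 had an unadjusted p under 0.05, where 2.82% of all probe sets did. Cd79a was the 1 probe set without overlap, lower with quercetin, as were 3.27% of all probe sets, and 0 of 13 lay wholly above the controls, as 3.49% of all did. All 8 B lineage genes were lower with quercetin, with a median of -0.64 against 0.01 over all probe sets. That median was -0.24 without POR-null control array 1.

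Between genotypes on the control diet, which sets the same control arrays against each other, 0 of 13 passed (background 0%), with adjusted p of 0.734 to 0.98. Only Cd22, higher in POR-null mice by 0.62 (SE 0.26) and by 0.34 without POR-null control array 1, had an unadjusted limma p under 0.05, where 3.68% of all probe sets were higher at that level. The groups overlapped for all 13, where 4.81% of all probe sets lay wholly higher and 4.86% wholly lower in POR-null mice. All 8 B lineage genes were higher in POR-null mice on this diet, by a median of 0.83 against -0.01 over all probe sets. The median was 0.32 without POR-null control array 1. Jchain had the largest difference of the 9 at 1.89 (SE 0.93, 95% interval -0.12 to 3.90), which was 3.14 without wild type control array 1 and 0.98 without wild type control array 3.

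Between genotypes on the quercetin diet 0 of 13 passed as well (background 0%), with an adjusted p of 0.998 for each. Cd79b, at -1.43 (SE 0.60) and at -0.87 without wild type quercetin array 2, and Cd22, at -0.60 (SE 0.26), were lower in POR-null mice at an unadjusted limma p under 0.05, where 1.36% of all probe sets were lower. Pigr, at 0.22 (SE 0.10) and at 0.12 without wild type quercetin array 3, was higher at that level, where 1.03% were. Cd22 and the second Ms4a1 probe set did not overlap between the genotypes, lower in POR-null mice as were 3.74% of all probe sets, and the second Pigr probe set did not overlap in the other direction, as did 3.08%. The B lineage median was -0.71 against -0.01 over all probe sets, with 7 of 8 lower, and -0.34 without wild type quercetin array 2. Jchain differed by -0.07 (95% interval -2.08 to 1.94), and that value changed sign to 0.07 without wild type quercetin array 1 and to 0.72 without POR-null quercetin array 2.

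The test of whether the quercetin difference itself differed between genotypes again passed for 0 of 13 probe sets (background 0%), with an adjusted p of 0.998 for each. At an unadjusted limma p under 0.05 there were 7 of 13, all with a lower difference in POR-null mice, where 2.92% of all probe sets were lower and 4.74% differed in either direction. They were Cd79a at -1.69 (SE 0.67), Cd79b at -2.69 (SE 0.85), Cd22 at -1.22 (SE 0.37), Cd37 at -1.05 (SE 0.36), Pou2af1 at -1.83 (SE 0.77) and Ms4a1 at -1.77 (SE 0.71) and -1.15 (SE 0.45). The signals of these 6 genes correlated at 0.90 to 0.98 over the arrays, so the 7 are not independent calls. Jchain was at -1.96 (SE 1.32, 95% interval -4.81 to 0.88), Blnk at -0.01 (interval -0.39 to 0.37) and Pigr at 0.18 (interval -0.12 to 0.48). The median of the 8 B lineage genes was -1.73 against 0.01 over all probe sets.

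That count leaned on few arrays, and the median was between -2.11 and -1.18 with single arrays left out. Leaving out wild type quercetin array 2 gave a count of 3, where 3.71% of all probe sets differed in either direction. The count was 4 on leaving out wild type control array 2 (3.85% of all probe sets), control array 3 of that group (3.2%) or POR-null control array 1 (3.7%). Jchain was between -3.21 and -1.05 with single arrays left out, at -3.21 without array 1 and -1.05 without array 3 of the wild type controls, and Pou2af1 was -1.17 without POR-null control array 1. With wild type quercetin array 2 and POR-null control array 1 both left out, a choice made after their values were seen, the median was -0.79 and the count 3, where 3.34% of all probe sets differed in either direction.

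**Figure D2:**
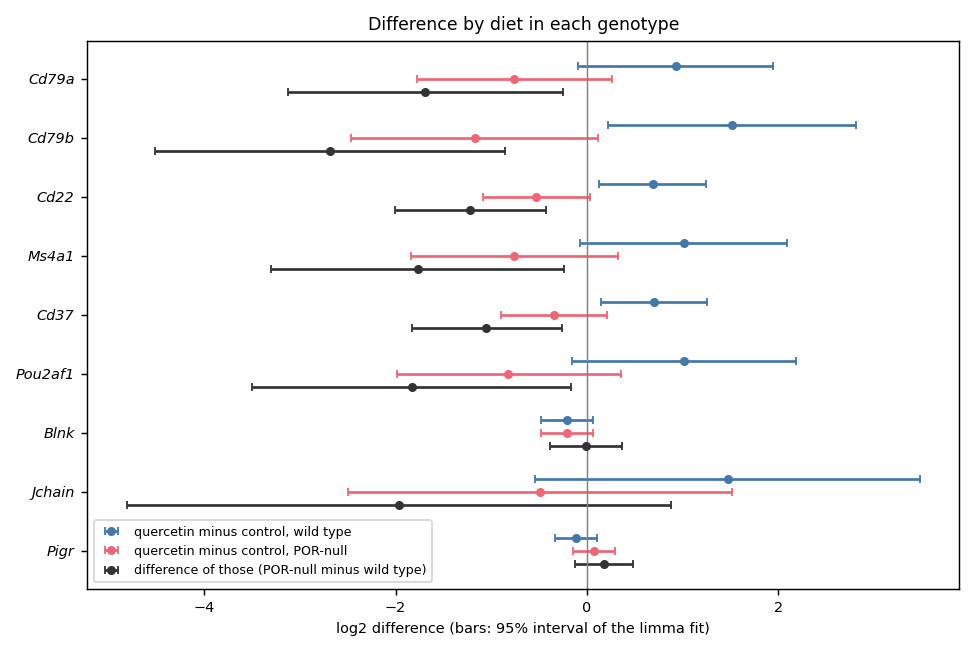
Log2 difference of quercetin minus control in wild type and in POR-null mice, and the difference of those differences, for each of the 9 genes, with bars for the 95% interval of the limma fit (n = 3 arrays per group). The 6 genes from Cd79a to Pou2af1 lie right of 0 in wild type and left of 0 in POR-null mice, Jchain has the widest bars, and Blnk and Pigr lie near 0.

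Over the 12 arrays the signals of Cd79a, Cd79b, Cd22, Ms4a1, Cd37 and Pou2af1 moved closely together. The 15 pairs of these genes, grouped after their values were seen, had Pearson correlations of 0.90 to 0.98 and Spearman correlations of 0.91 to 0.99. Without the 2 arrays highest in them the Pearson correlations were 0.81 to 0.96, and over deviations from the group means they were 0.86 to 0.98, so the shared variation was also found among arrays of the same group. The points share their RNA pool, tissue scraping and array, and the correlations describe these arrays only.

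Jchain followed these genes less closely over all 12 arrays, with correlations of 0.50 to 0.63, and at 0.51 to 0.86 without the 2 arrays highest in them, a range that overlaps that of the 6 genes. It followed Igha, the constant region of the IgA heavy chain, at 0.99 (Spearman 0.99). Igha had signals of 12.84, 9.95 and 8.56 on the wild type control arrays, 11.99, 11.43 and 11.99 on the wild type quercetin arrays, 12.89, 12.43 and 11.14 on the POR-null control arrays and 11.80, 10.29 and 13.13 on the POR-null quercetin arrays. Its quercetin difference was 1.35 (SE 0.90) in wild type and -0.41 (SE 0.90) in POR-null mice. Of 8 immunoglobulin genes measured of 19 listed, 6 were higher with quercetin in wild type (median 0.24). In POR-null mice 6 were lower (median -0.07), and 0 passed the adjusted limma threshold in either genotype. In wild type mice 1 of 8 was lower at an unadjusted limma p under 0.05, where 1.94% of all probe sets were lower. That gene was Igll1, a surrogate light chain of precursor B cells, at -0.31 (SE 0.13), and its second probe set was at 0.01 (SE 0.16). Blnk correlated at -0.38 to -0.27 and Pigr at -0.25 to 0.02 with the 6 genes.

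**Figure D3:**
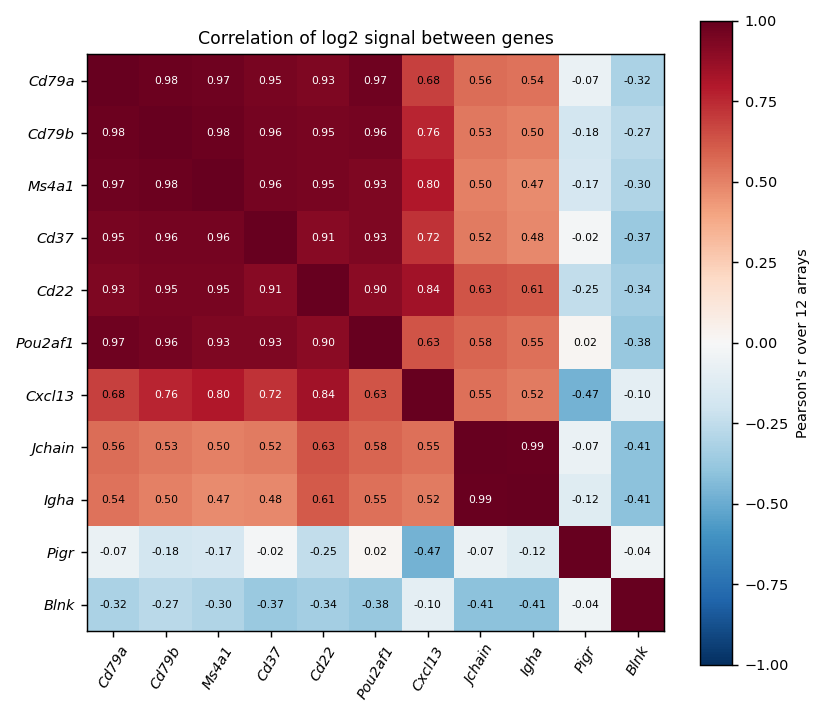
Pearson correlation of log2 signal over the 12 arrays between the 9 genes, Igha and the follicle chemokine gene Cxcl13, as coloured and numbered cells. The block of 6 B cell genes has values of 0.90 to 0.98, Jchain and Igha form a pair at 0.99, and Pigr and Blnk have values near or below 0 with all others.

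The arrays high in the receptor chains and those high in Jchain coincided in part. POR-null quercetin array 3 had the highest Jchain signal, 11.83, while the mean of Cd79a and Cd79b there was 6.46. Wild type quercetin array 2 had a Cd79a and Cd79b mean of 8.36 and a Jchain signal of 10.14. POR-null control array 1 was high in both, at 8.38 and 11.58, as was wild type control array 1 at 6.92 and 11.37, and wild type control arrays 2 and 3 were low in both.

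**Figure D4:**
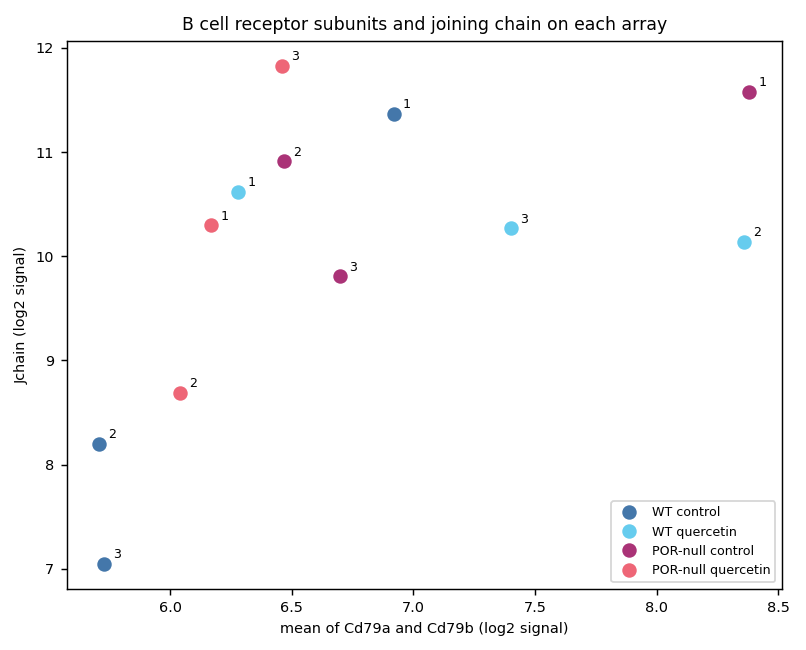
Mean log2 signal of Cd79a and Cd79b (horizontal) against that of Jchain (vertical) on the 12 arrays, coloured by group and numbered by array. Jchain spans 8.69 to 11.83 over the 3 POR-null quercetin arrays, whose receptor means lie between 6.04 and 6.46.

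Among 7292 genes with 1 symbol and a signal at or above the median, those most like the mean of the 8 B lineage genes over the 12 arrays were Coro1a (0.98), Ptprc (0.98), Srgn (0.97), Cd52 (0.97), Mfge8 (0.97), Lyz2 (0.96), Clu (0.96) and Lcp1 (0.96). Ptprc encodes CD45 of all leukocytes, Cd52 a leukocyte surface peptide and Lyz2 the lysozyme of myeloid cells. Without the 2 arrays farthest from the median these correlations were 0.92 to 0.97. The genes most like Jchain were Igha and a kappa light chain variable gene (0.99 each), Bgn (0.95), C1qa and Apoe (0.93 each), Serping1 (0.92), Col3a1 (0.91) and Cebpd (0.90). Without the 2 arrays farthest from the median these were 0.99 for Igha, 0.97 for the variable gene, 0.92 for Bgn, 0.88 for C1qa and 0.75 to 0.82 for the other 4. Bgn and Col3a1 encode matrix proteins and C1qa a complement chain of macrophages. The gene most like Pigr was Bcar1 at 0.88, which was 0.52 without the 2 farthest arrays.

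Other mature B cell genes had smaller differences of the same signs. Of 24 measured of 33 listed, 23 were higher with quercetin in wild type mice (median 0.24) and 20 were lower in POR-null mice (median -0.14), and 0 passed the adjusted threshold in any of the 5 comparisons. Their quercetin difference was lower in POR-null mice for 23 of 24 genes (median -0.38, against 0.01 over all probe sets), and 7 of 24 did so at an unadjusted limma p under 0.05, where 2.92% of all probe sets did. All 24 were measured on the same pools, so the 7 are not independent calls. Cd83, an activation marker of B cells and dendritic cells, differed by 0.83 (SE 0.26) in wild type and -0.51 (SE 0.26) in POR-null mice. Blk, a kinase of the receptor pathway, differed by 0.36 and -0.30, Btk, another such kinase, by 0.30 and -0.18, and the complement receptor gene Cr2 by 0.34 and -0.28.

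Lymphoid follicle genes had a similar profile, with 18 of 21 higher with quercetin in wild type (median 0.34) and 16 of 21 lower in POR-null mice (median -0.36). None passed the adjusted limma threshold, while 11 of 21 had a lower quercetin difference in POR-null mice at an unadjusted p under 0.05, where 2.92% of all probe sets did. Ccr6, a chemokine receptor of B cells and dendritic cells in follicles, was at 0.56 (SE 0.21) in wild type and -0.70 (SE 0.21) in POR-null mice, a difference of -1.26 (SE 0.30, adjusted p = 0.998). Cxcr5, the receptor that guides B cells into follicles, was at 0.60 and -0.39, and Mfge8, made by follicular dendritic cells and other cells, at 0.97 and -0.57. The list was written with earlier results of these data known. It holds Cd52, Coro1a, Mfge8 and Ptprc, which were also named for their likeness above, and of these Cd52 and Ptprc are genes of leukocytes in general. The count of 11 is therefore not a separate result about follicles.

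Plasma cell genes had small differences. Of 14 measured, 10 were lower with quercetin in wild type (median -0.07) and 10 in POR-null mice (median -0.11). None passed the adjusted threshold in any comparison. In wild type 0 of 14 had an unadjusted limma p under 0.05, where 3.2% of all probe sets were higher and 1.94% lower. In POR-null mice 1 of 14 did, where 2.82% of all probe sets differed in either direction. That gene was Irf4, a transcription factor of plasma cell formation, at -0.04 in wild type and 0.23 (SE 0.09) in POR-null mice. Prdm1, the repressor that drives plasma cell formation, was at 0.06 and -0.27, Ell2, an elongation factor used for secretory immunoglobulin, at 0.12 and -0.23, and the syndecan gene Sdc1 at -0.25 and 0.03. Epithelial cells also express several of these genes, and the list means were 7.44 to 7.81 on all 12 arrays.

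Genes of IgA switching, homing and survival had medians of 0.02 and 0.00 for quercetin in wild type and POR-null mice (19 measured of 21). None of them had an adjusted or an unadjusted limma p under 0.05 in any of the 5 comparisons. For quercetin at the unadjusted level, 3.2% of all probe sets were higher and 1.94% lower in wild type, and 2.82% differed in POR-null mice. Madcam1, the vascular ligand that admits lymphocytes to the gut, was at 0.09 and -0.30 (SE 0.16), and Aldh1a2, which makes retinoic acid in dendritic cells, at 0.25 and 0.05 (SE 0.12).

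Genes of receptor transcytosis, the route by which the Pigr product crosses the cell, had small differences. The 12 measured of 14 had medians of -0.04 in wild type and 0.01 in POR-null mice. None had an adjusted or an unadjusted limma p under 0.05 in any comparison. At the unadjusted level 3.2% of all probe sets were higher and 1.94% lower with quercetin in wild type, and 2.82% differed in POR-null mice. Ap1b1, a subunit of a basolateral sorting adaptor, was at -0.17 and 0.08 (SE 0.10), Myo5b, a motor of apical recycling, at -0.14 and 0.01, Rab5a of early endosomes at 0.05 and -0.12 and the kinase gene Yes1 at -0.15 and -0.01.

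Known regulators of Pigr transcription had medians of 0.04 and -0.01 over 18 measured of 21, and 0 passed the adjusted threshold. At an unadjusted limma p under 0.05 in wild type mice 2 were higher (Irf1 and Tlr4) and 2 lower (Usf1 and Ifngr2) with quercetin, of 18, where 3.2% of all probe sets were higher and 1.94% lower. Ifngr2 is named only for this count. Irf1, the interferon-induced factor, was at 0.35 (SE 0.15) in wild type and -0.12 in POR-null mice, and Tlr4, the receptor for bacterial lipopolysaccharide, at 0.31 (SE 0.14) and -0.08. Usf1, a factor that binds E-boxes, was at -0.23 (SE 0.10) and 0.05, and the NF-kappaB subunit gene Rela at 0.22 (SE 0.11) and -0.11.

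Some markers of other cells moved with the B cell genes, and their part in these results was not tested. The mean of the 8 B lineage genes was 6.39 to 7.58 on the wild type control arrays, 7.11 to 8.25 on the wild type quercetin arrays, 7.26 to 8.48 on the POR-null control arrays and 6.72 to 7.40 on the POR-null quercetin arrays. MHC class II genes (9 of 11 measured) had means of 6.81 to 8.02, 7.70 to 8.71, 7.72 to 8.52 and 7.52 to 7.77 in the same order. T and NK cell genes (18 of 22) had means of 5.63 to 5.80, 5.72 to 6.05, 5.73 to 6.05 and 5.79 to 5.96, and macrophage and dendritic cell genes (19 of 19) of 5.47 to 5.82, 5.78 to 5.88, 5.75 to 6.06 and 5.56 to 5.92. Cd3d, a gene of the T cell receptor complex, differed by 0.34 (SE 0.22) in wild type and -0.31 in POR-null mice, and Lyz2 by 1.29 (SE 0.57) and -1.01. Over the T and NK cell list the median was 0.17 in wild type and -0.01 in POR-null mice. In POR-null mice 8 genes of that list were higher and 10 lower with quercetin. MHC class II genes had medians of 1.33 and -0.44, with 9 of 9 lower in POR-null mice. Macrophage and dendritic cell genes had medians of 0.16 and -0.14, with 15 of 19 lower in POR-null mice. The interaction medians were -1.78 for MHC class II, -0.16 for T and NK cell and -0.32 for macrophage and dendritic cell genes. That of the B lineage genes was -1.73. In these lists 0 genes passed the adjusted limma threshold for quercetin in wild type, with 6 of 9, 2 of 18 and 1 of 19 genes higher at an unadjusted p under 0.05, where 3.2% of all probe sets were. The 2 T and NK cell genes were Lat and Nkg7, the latter named only for this count, and the macrophage gene was Lyz2.

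Smooth muscle genes, of which 15 of 16 were measured, had means of 5.92 to 6.10 on the wild type control arrays, 6.19 to 8.98 on the wild type quercetin arrays, 6.15 to 7.42 on the POR-null control arrays and 7.04 to 7.39 on the POR-null quercetin arrays. All 15 were higher with quercetin in both genotypes, with medians of 1.44 and 0.17, where the B lineage medians were 0.97 and -0.64. In the other comparisons the smooth muscle medians had the signs of the B lineage medians. Between genotypes they were 0.74 on the control diet and -0.39 on quercetin, beside 0.83 and -0.71 for the B lineage genes. In the interaction the medians were -1.27 for smooth muscle and -1.73 for the B lineage genes. Without wild type quercetin array 3, the highest in smooth muscle, the B lineage median was 0.89 in wild type mice. Pancreatic acinar genes had medians of -0.98 and 1.60, opposite in sign to the B lineage medians. Leaving out wild type control array 1 put the B lineage median at 1.36 in wild type mice, and without POR-null quercetin array 2 it was -0.60 in POR-null mice. Colon epithelium genes had medians of -0.03 and -0.05.

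**Figure D5:**
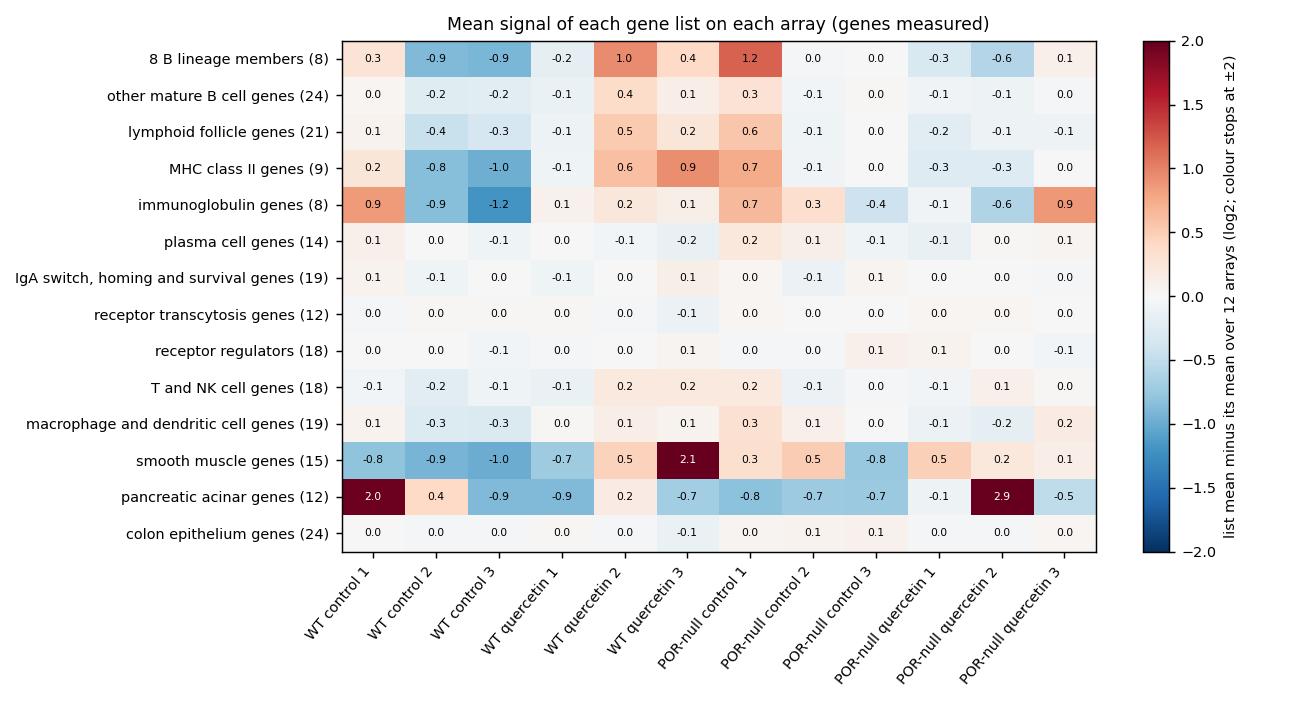
Mean log2 signal of each gene list on each of the 12 arrays minus the list's mean over all arrays, as coloured and numbered cells, with the number of genes measured in brackets. B lineage, lymphoid follicle and MHC class II genes are low on wild type control arrays 2 and 3 and high on wild type quercetin array 2 and POR-null control array 1, while transcytosis and colon epithelium genes differ little between arrays. The highest mean signal of the MHC class II genes, 8.71, is on wild type quercetin array 3, the array highest in smooth muscle genes.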

How the data were processed

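Arrays were Affymetrix 430A with biotin-labelled colon RNA, per the labels. The authors' deposited table held 1 signal per probe set and array, taken to be log2. MAS5 and RMA appear in the submitters' processing notes, with neither a version nor a role, so the method behind the deposited log2 values is unknown here. Of 22690 probe sets 64 controls were left out, and no filter or further normalization was applied. Names came from the array annotation, with 20380 probe sets of 1 symbol, 691 of several and 1555 of none.

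Group means were compared with limma 3.58.1 (lmFit, eBayes with trend=TRUE) in R 4.3.3, in 1 fit of all 12 arrays and 4 groups, checked on simulated data. There were 5 contrasts, and p was two-sided and adjusted by Benjamini and Hochberg over 22626 probe sets, with a threshold of 0.05. SE and 95% intervals are those of this fit, and the intervals are not adjusted for multiple tests. SD is over the 3 pools of a group. The p rests on a spread between pools that limma estimated for each probe set over all 4 groups, and not on the printed SD.

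The genes, lists and tests were chosen with earlier results of these data known. All 9 genes are named, and of each further list up to 4, those of smallest unadjusted p in the interaction, and the 8 genes of likest pattern to the B lineage mean, to Jchain and to Pigr. For some lists fewer are printed. The immunoglobulin probe sets and Cxcl13 were added after values were seen. The targeted gene Por was not analysed here. Replicate numbers were checked for pairing. Deviations from group means correlated at -0.19 to 0.26 for 18 same-numbered pairs and -0.27 to 0.21 for 36 others, so no pairing entered the fit. Alternatives were quantile normalization, a filter on the lower quartile of signal, trend=FALSE, array weights, a replicate block, the compared groups alone, means over a gene's probe sets and leaving out each array.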

Additional observations from a re-analysis of the deposited data

How the results depend on the processing

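The count of member probe sets past the threshold was 0 in all 5 comparisons under every alternative fitted, and no single gene crossed it. Of 866 values of the 9 genes under alternatives, 853 kept their sign. Those that changed were near 0 or belonged to Jchain, and the cause was not tested. Blnk between genotypes on the control diet (0.10) was -0.01 with array weights and -0.04 to 0.19 with single arrays left out. Blnk in the interaction (-0.01) was 0.00 with quantile normalization, 0.10 with array weights and -0.10 to 0.13 with single arrays left out. With single arrays left out, Jchain was -0.85 to 0.72 between genotypes on the quercetin diet (-0.07) and -1.27 to 0.30 for quercetin in POR-null mice (-0.49), and Pigr was -0.02 to 0.07 between genotypes on the control diet (0.04).

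The count over all probe sets, 0 in each comparison, was 2 for quercetin in wild type and 399 for genotype on the control diet with array weights, and 1 for genotype on the quercetin diet in the fit of those groups alone. With single arrays left out it was 0 to 3 for quercetin in wild type, 0 to 1 for quercetin in POR-null mice, 0 to 41 and 0 to 1 for genotype on the control and quercetin diets and 0 to 1 for the interaction. The number of member probe sets at an unadjusted p under 0.05 in the interaction (7) was 3 to 9 with single arrays left out, and 3 with the 2 arrays highest in B cell genes left out, an alternative chosen after seeing the data, under which the B lineage median was -0.79.

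No pairing of the arrays by replicate number was seen in the correlations of deviations from group means, which cannot exclude one. With the replicate number as a block the count over all probe sets was 1 for genotype on the quercetin diet, the member count stayed 0 and the unadjusted count in the interaction was 7.

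With 3 pools a group, precision was limited, most of all for Jchain, whose 95% intervals were the widest of the 9 genes.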

Other observations

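Probe sets of immunoglobulin genes were among the most variable on the array, and were looked at after values were seen. Of 44 probe sets with a single immunoglobulin symbol 8 were among the 100 of widest range over the 12 arrays, and of the member probe sets those of Jchain and Cd79b were. The lambda variable gene Iglv1 had signals of 9.55, 5.49 and 4.90 on the wild type control arrays, 7.90, 8.37 and 8.34 on the wild type quercetin arrays, 9.99, 7.70 and 5.95 on the POR-null control arrays and 7.71, 6.31 and 11.82 on the POR-null quercetin arrays. Its range of 6.92 was wider than that of Jchain, and its highest array was the one highest in Jchain and Igha.

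Probe sets named for Ighm, the IgM heavy chain, did not vary alike. One followed the B cell receptor chains, with 8.83 on POR-null control array 1, 8.32 on wild type quercetin array 2 and 5.33 on wild type control array 2. Another had 9.20 on wild type control array 1, 9.74 on wild type quercetin array 2 and 9.17 on POR-null control array 2, against 7.70 to 8.21 on the other arrays. A further Ighm probe set had 9.23 on POR-null quercetin array 3 and 5.85 to 7.53 elsewhere. Such probe sets can also detect variable segments or related transcripts, and they are reported as uncertain. The heavy chain variable gene Ighv14-2 had 6.80 on POR-null control array 1, 6.27 and 5.89 on wild type quercetin arrays 2 and 3 and 3.85 to 4.75 on the remaining 9 arrays.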
